A study of Arabidopsis thaliana with 6 samples.

Results

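PRK (AT1G32060), SBPASE (AT3G55800) and RCA (AT2G39730) are nuclear genes for chloroplast proteins of carbon fixation, and their transcript levels were followed on 6 ATH1 arrays of Arabidopsis thaliana seedlings. The genes were taken by name, with earlier results of these data known, and each had 1 probe set, so 3 probe sets of the 22746 that are not Affymetrix controls are described. All 3 were bright and passed the filter on low signals, which kept 15923 probe sets. The study asked how nuclear gene expression responds when chloroplast division is inhibited. The labels do not say which transgene inhibits division in the induced line.

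Prolonged induction seedlings (T-DNA line, Ler-1) grew on medium with 2 µM estradiol, the inducer, and were sprayed with it every 24 h. Temporal induction seedlings (T-DNA line, Ler-1) were grown without inducer in the medium and received a single spray at day 13, 24 h before harvest. Control seedlings (T-DNA line, Ler-0) carried only the empty vector PER-10 and received the same single spray. The labels write 7-B-estradiol for both induced groups and 17-B-estradiol for the control, and this was read as 1 compound. All seedlings grew in constant light and were harvested whole at day 14 with 4 rosette leaves, 2 arrays per group. Prolonged induction therefore differs from its control in line, in background as labelled and in length of exposure to inducer, and uninduced seedlings of the induced line are not among the groups. Temporal induction differs from its control in line and in labelled background, with the same single spray. Within each comparison with control these differences cannot be told apart. Nothing in the labels says that the 2 arrays of a group came from separate cultures, so the spread behind each p-value may be technical and covers these samples alone.

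As background, the Calvin cycle uses ATP and NADPH from the light reactions to turn CO2 into sugar phosphates in the chloroplast stroma. Rubisco fixes CO2 on ribulose bisphosphate, and the rest of the cycle reduces the product and rebuilds that acceptor. SBPASE, sedoheptulose bisphosphatase, commits carbon to the rebuilding branch. PRK, phosphoribulokinase, makes ribulose bisphosphate in the final step. Both enzymes are switched on in the light when thioredoxins reduce their disulfides, and PRK is held inactive in the dark in a complex with the small protein CP12. RCA, Rubisco activase, takes no part in the cycle itself. It uses ATP to strip inhibitory sugar phosphates from Rubisco.

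The signals are MAS5 intensities on a linear scale, scaled by the authors so that the mean of every array after trimming 2% from each end was 100.01. Median signal ran from 53.1 to 58.8 over the 6 arrays, and the number of arrays limits the precision. The 3'/5' ratio of the control probe sets for actin, which reflects how intact the RNA was, read 6.14 and 4.45 on the prolonged arrays, 3.19 and 5.22 on the temporal arrays and 4.19 on both control arrays. The same ratio for GAPDH was 2.22 and 2.67 on the prolonged arrays, 2.43 and 2.48 on the temporal arrays, and 1.82 and 2.38 on the control arrays. For ubiquitin it was 1.87 and 1.69 on the prolonged arrays, 1.58 and 1.79 on the temporal arrays, and 1.66 and 1.79 on the control arrays. Actin was thus higher on both prolonged arrays than on both controls, and GAPDH higher on both temporal arrays than on both controls. Actin on the temporal arrays, GAPDH on the prolonged arrays and ubiquitin on both overlapped the controls. Of 6 root marker genes 3 had a named probe set that was tested (PYK10, EXPA7 and EXPA18), none listed at 0. Their summed signal was 3872 and 2679 on the prolonged arrays, 3784 and 3698 on the temporal arrays, and 4172 and 4813 on the control arrays. Of 4 anther markers 2 had such a probe set (ATA27 and AT5G07230). They summed to 123 and 158 on the prolonged arrays, 132 and 111 on the temporal arrays, and 30.5 and 31.7 on the control arrays. The guard cell marker FMA, 1 of 3 listed, overlapped between the groups, at 101 and 116, 87.6 and 97.2, and 113 and 70.1 in the same order of groups. The phloem marker and the 4 senescence markers were not analysed here. Root markers were lower and anther markers higher on all 4 induced arrays than on both controls. Of all tested probe sets, 24.6% had both prolonged and 23.6% both temporal arrays below the controls. The share with arrays above the controls was not counted, so the anther separation has no such background here. No root marker passed in limma, the test described below, and PYK10 dominated the root sum. Among the anther markers only ATA27 passed, after prolonged induction alone (limma adjusted p = 0.0126), from dim control signals of 3.98 and 20.5. The part of root or anther markers, or of RNA integrity, in the results below was not tested. In whole seedlings, fewer cells of a type and less RNA per cell cannot be told apart.

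PRK read 2039 and 1689 on the prolonged arrays, 2074 and 2023 on the temporal arrays, and 3332 and 2989 on the control arrays. All 4 induced arrays lay below both control arrays, and the prolonged and temporal arrays overlapped. SBPASE read 1221 and 918 on the prolonged arrays, 1216 and 1174 on the temporal arrays, and 2337 and 1750 on the control arrays. Its order was the same, with a wider gap between the 2 control arrays, the higher being 1.34 times the lower against 1.11 times for PRK. RCA read 9929 and 8959 on the prolonged arrays, 11299 and 11179 on the temporal arrays, and 14256 and 13024 on the control arrays. For RCA no pair of groups overlapped: every prolonged array was below every temporal array, and every temporal array below every control array. This order held for 720 of 15923 tested probe sets (4.52%), and among the 3 genes for RCA alone. For all 3 genes the 2 temporal arrays lay closer together than either other pair, differing by at most 1.04 times.

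**Figure D1:**
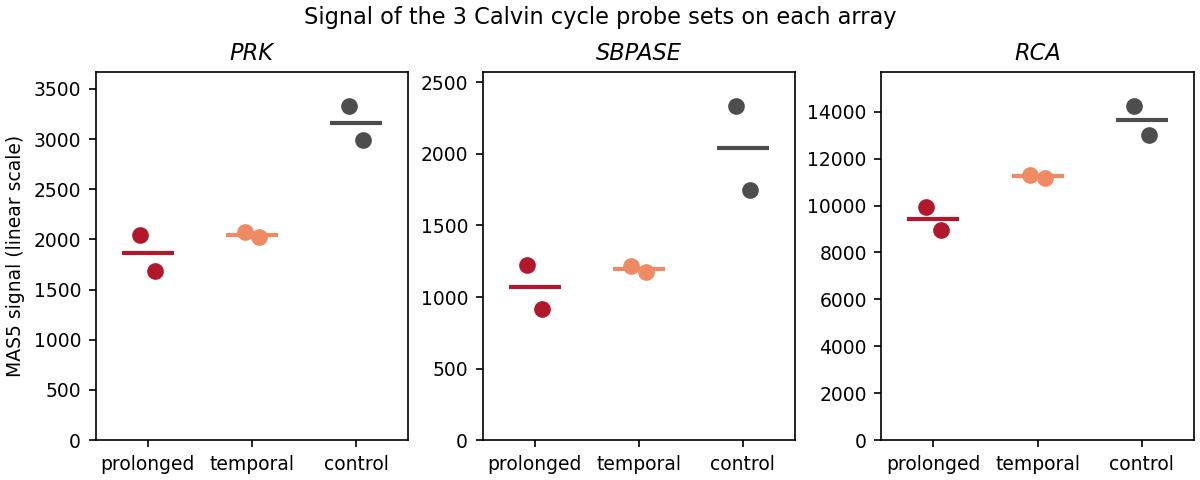
Signal of PRK, SBPASE and RCA (vertical axis, MAS5 signal on a linear scale from 0) on the 2 arrays of each group, with points for arrays and bars for group means. The 4 induced arrays sit below both control arrays in each panel, and only for RCA are the prolonged and temporal arrays separate.

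Prolonged induction against control asked how the transcripts stood in seedlings kept on inducer from sowing. All 3 genes fell in limma (a linear model fitted to the log2 signals of all 15923 probe sets, with a call at a Benjamini-Hochberg adjusted p under 0.05), where 3.18% of all tested probe sets fell and 3.77% rose. SBPASE, the bisphosphatase, averaged 1070 ± 214 in prolonged seedlings and 2043 ± 415 in control seedlings (SD, n = 2 each), a log2 difference of −0.93 ± 0.17 (SE) and a limma adjusted p of 0.00825. The 95% confidence interval of that difference ran from −1.31 to −0.56, and the estimate is a level 47.6% lower. PRK, the kinase, averaged 1864 ± 248 in prolonged seedlings and 3161 ± 242 in control seedlings, a log2 difference of −0.77 ± 0.13 (limma adjusted p = 0.00635, interval −1.06 to −0.47). RCA, the activase, averaged 9444 ± 686 in prolonged seedlings and 13640 ± 871 in control seedlings, a log2 difference of −0.53 ± 0.14 (limma adjusted p = 0.0443, interval −0.84 to −0.22). Every one of the 4 ratios of a prolonged array to a control array was under 1, at 0.393 to 0.698 for SBPASE, 0.507 to 0.682 for PRK and 0.628 to 0.762 for RCA. The arrays of the 2 groups did not overlap in this direction for 24.6% of all tested probe sets, a share that is much larger than that of the calls. The exact permutation test of 2 arrays against 2 cannot give a two-sided p below 0.333. The calls therefore rest on the limma spread, which combines that of each probe set with that expected at its brightness.

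The RCA call was the least firm of the 3. It passed in 5 of 15 alternative settings and was lost after quantile normalization (log2 difference −0.33), cyclic loess (−0.25) and median centring (−0.51), and when control replicate 1 (−0.47), prolonged replicate 2 (−0.46) or any temporal array (−0.53) was omitted. SBPASE did not pass without prolonged replicate 2 (−0.73, limma adjusted p = 0.0588), and no gene of the 3 passed when the variance model had no intensity trend.

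Temporal induction against control compared the induced line with the empty-vector line 24 h after the same single spray. PRK and SBPASE fell here too, where 0.729% of tested probe sets fell and 1.70% rose in limma. SBPASE averaged 1195 ± 29.6 in temporal seedlings and 2043 ± 415 in control seedlings (SD, n = 2 each), a log2 difference of −0.76 ± 0.17 (SE; limma adjusted p = 0.0457, interval −1.14 to −0.38). PRK averaged 2049 ± 36.3 in temporal seedlings and 3161 ± 242 in control seedlings, a log2 difference of −0.62 ± 0.13 (limma adjusted p = 0.0359, interval −0.92 to −0.33). In percent, the temporal level was 40.9% lower for SBPASE and 35.1% lower for PRK. RCA averaged 11239 ± 84.7 in temporal seedlings and 13640 ± 871 in control seedlings, and its log2 difference of −0.28 ± 0.14 did not pass (limma adjusted p = 0.391). The RCA interval of −0.58 to 0.03 leaves room for a level up to 33.3% lower. Non-overlap in this direction, which all 3 genes showed, was found for 23.6% of tested probe sets. Both calls stood close to the threshold and passed in 8 of 15 alternative settings. They were lost after quantile normalization and median centring, without the filter or the intensity trend, and without control replicate 1 (log2 difference −0.55 for both genes), temporal replicate 1 or temporal replicate 2.

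**Figure D2:**
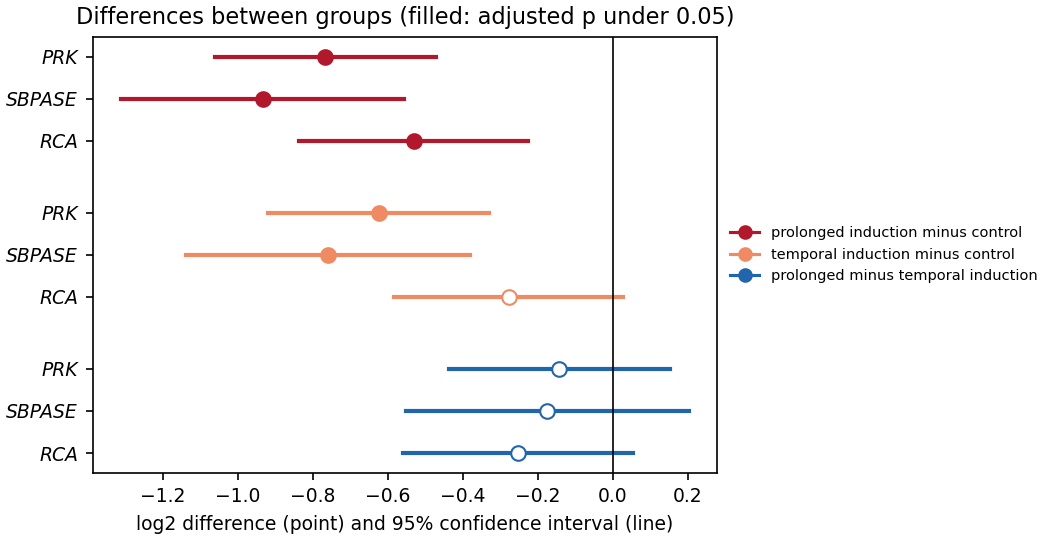
Log2 differences (horizontal axis) of PRK, SBPASE and RCA with their 95% confidence intervals in 3 comparisons, filled where the limma adjusted p was under 0.05. The intervals against control exclude 0 for all but RCA after temporal induction, and none of the 3 between the induced groups does.

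Prolonged against temporal induction asked whether long exposure differed from a single spray (the control arrays entered the estimate of the spread alone). No gene of the 3 passed in limma, in a comparison that called 0.0879% of tested probe sets. RCA stood at 9444 ± 686 in prolonged and 11239 ± 84.7 in temporal seedlings (SD, n = 2 each), a log2 difference of −0.25 ± 0.14 (limma adjusted p = 0.882, interval −0.56 to 0.05), and its arrays did not overlap. Such separation in this direction was found for 18.1% of tested probe sets. PRK differed by −0.14 ± 0.13 (interval −0.44 to 0.15) and SBPASE by −0.17 ± 0.17 (interval −0.55 to 0.20), with overlapping arrays. The intervals still allow prolonged levels 26.1% lower for PRK, 31.8% lower for SBPASE and 32.1% lower for RCA, so equal levels are not shown. Without prolonged replicate 2 the SBPASE difference was 0.03, above 0. By group mean all 3 genes ran prolonged, temporal, control from low to high, but array by array RCA alone did. The step between the 2 induced groups did not pass for any of the 3 genes. The 2 comparisons with control share the control arrays, so their values are given side by side only.

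Ratios between the genes within an array do not change when a whole array is multiplied by 1 factor, although quantile normalization and cyclic loess do move them. The log2 ratio of RCA to SBPASE, with the control mean set to 0, was 0.27 and 0.53 on the prolonged arrays, 0.46 and 0.50 on the temporal arrays, and −0.14 and 0.14 on the control arrays. The 4 induced arrays lay above both control arrays, so RCA was lowered less than SBPASE on each of them. The log2 ratio of RCA to PRK was 0.17 and 0.30 on the prolonged arrays, 0.34 and 0.36 on the temporal arrays, and −0.01 and 0.01 on the control arrays, again without overlap. PRK over SBPASE was 0.10 and 0.24 on the prolonged arrays, 0.13 and 0.14 on the temporal arrays, and −0.13 and 0.13 on the control arrays. For that last ratio the prolonged arrays and the temporal arrays both overlapped the control arrays. Over the 15 alternative settings the RCA to SBPASE ratio stayed above 0, at 0.26 to 0.58 in the prolonged comparison. In the temporal comparison it was 0.34 to 0.62. The ratio of RCA to PRK also stayed above 0, at 0.17 to 0.38 and 0.30 to 0.43. So did PRK over SBPASE, at 0.04 to 0.30 and 0.005 to 0.27, although its arrays overlapped the controls. A sign kept over the settings therefore does not set the RCA ratios apart. With 2 arrays a group the smallest exact two-sided permutation p for such a ratio is 0.333, so these are descriptions.

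**Figure D3:**
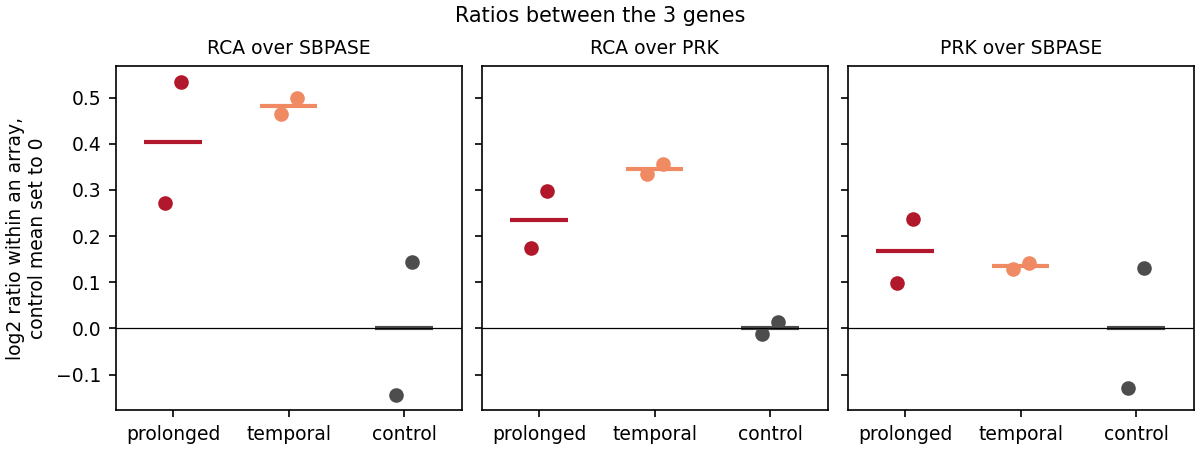
Log2 ratios of signal between 2 genes on the same array (vertical axis, control mean set to 0), with points for arrays and bars for group means. RCA over SBPASE and RCA over PRK are higher on all 4 induced arrays than on both control arrays, while for PRK over SBPASE both induced groups overlap the control arrays.

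Bright probe sets as a class stood slightly below 0 in the induced seedlings, with median log2 differences of −0.08 after prolonged and −0.06 after temporal induction over the brightest 10%. In that class (1592 tested probe sets, mean signal at least 336), which holds all 3 genes, 17.7% fell and 11.8% rose after prolonged induction, and 5.53% fell and 6.60% rose after temporal induction. Probe sets within 1 log2 unit of the mean signal of PRK had a median log2 difference of −0.26 after prolonged induction (301 probe sets), against −0.77 for PRK. The median around SBPASE was −0.16 (582 probe sets) against −0.93 for SBPASE, and around RCA −0.09 (38 probe sets) against −0.53 for RCA. After temporal induction the medians around PRK, SBPASE and RCA were −0.15, −0.11 and 0.01. The differences of the 3 genes were thus below the median of probe sets of like brightness in both comparisons. In the prolonged comparison, 10.6% of the probe sets around PRK, 6.01% of those around SBPASE and 13.2% of those around RCA had a lower difference still.

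**Figure D4:**
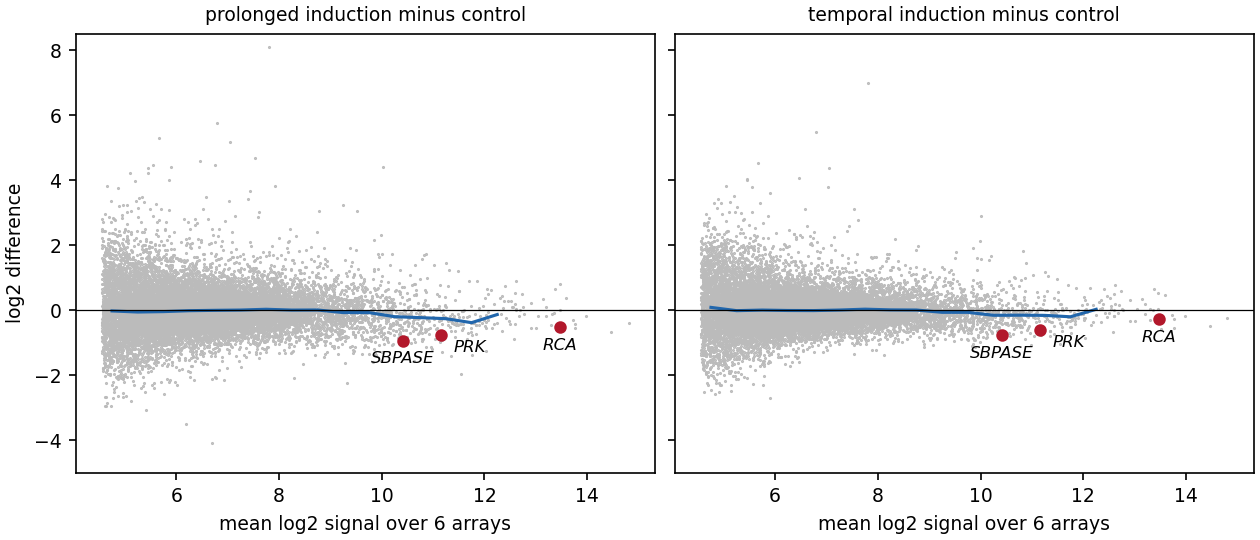
Log2 difference (vertical axis) against mean log2 signal over the 6 arrays (horizontal axis) for the 15923 tested probe sets in grey, with the median in steps of 0.5 log2 units of signal as a line where at least 20 probe sets fell in it. PRK and SBPASE, in red, lie below the line in both comparisons, and RCA lies beyond its right end, below 0 in both.

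Neighbouring steps of carbon metabolism were read from lists of 100 other genes. Of these, 26 had a named probe set that was tested and are called measured. The other 74 were not analysed here, so each list is covered only in part. After prolonged induction 12 of the 26 fell, 0 rose in limma and 14 did not pass, and 16 had an unadjusted p under 0.05. Over all 15923 tested probe sets 3.18% fell, and 3187 had an unadjusted p under 0.05. The 26 genes' median log2 difference was −0.63, against −0.02 over all tested probe sets. After temporal induction 6 fell, against 0.729% of all tested probe sets, 0 rose and 20 did not pass, 14 had an unadjusted p under 0.05 (2347 of all tested), and the median was −0.50 against −0.00180 over all. In prolonged against temporal induction 0 of the 26 passed in limma and 5 had an unadjusted p under 0.05, with a median of −0.07. Of the 26, 13 are in the brightest 10%, and 9 of those 13 fell after prolonged and 6 after temporal induction, where 17.7% and 5.53% of that whole class fell. The median centring of arrays left 7 falls after prolonged and 0 after temporal induction, and single omitted arrays left 7 to 12 and 0 to 6. Of the 12 falls, 7 passed in 14 of 15 alternative settings, whereas AT3G04550, HPR, AT1G80380, ty2 and NTRC each failed without prolonged replicate 2 and in further settings. Each of the 6 temporal falls failed without temporal replicate 1 and without temporal replicate 2. The lists were written from general knowledge, so a gene known in the tables only by its locus code is given by that code and its list.

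Of 23 further genes in the Calvin cycle list, 2 were measured. AT1G56190 fell in both comparisons: it read 404 and 364 on the prolonged arrays, 430 and 419 on the temporal arrays, and 651 and 699 on the control arrays. Its log2 differences were −0.82 ± 0.14 (limma adjusted p = 0.00572) after prolonged and −0.67 ± 0.14 (limma adjusted p = 0.0330) after temporal induction, close in size to those of PRK. AT5G64380 overlapped between the groups, with log2 differences of −0.09 and −0.07. Neither a Rubisco small subunit gene nor a CP12 gene was analysed here.

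Of 14 genes listed for the making and upkeep of Rubisco, 6 were measured. Of these 6, 4 fell after prolonged induction and 1 after temporal induction, against 3.18% and 0.729% of all tested probe sets. Cpn60beta2, a subunit of the chloroplast chaperonin that folds Rubisco, read 323 and 247 on the prolonged arrays, 448 and 372 on the temporal arrays, and 595 and 633 on the control arrays. Its 3 groups, like those of AT3G48420, ran in this order without overlap, as for 4.52% of all tested probe sets. The log2 differences of Cpn60beta2 against control were −1.12 ± 0.17 (limma adjusted p = 0.00310) after prolonged and −0.59 ± 0.17 (limma adjusted p = 0.120) after temporal induction. AT3G47650 fell in both comparisons, by 0.95 and 0.81 on the log2 scale, while AT3G48420 and AT3G04550 fell by 0.94 and 0.75 after prolonged induction and had −0.55 and −0.49 after temporal induction, which did not pass. No difference between the inductions passed for these genes. AT5G28500 had −0.41 and −0.50 and LSMT-L, a lysine methyltransferase-like gene, 0.22 and −0.06, none of which passed.

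Photorespiration recycles the phosphoglycolate that forms when Rubisco takes oxygen in place of CO2. Of 18 genes listed for it, 4 were measured. All 4 fell after prolonged induction and 2 after temporal induction, where 3.18% and 0.729% of all tested probe sets fell. LrgB, which encodes a glycolate and glycerate transporter of the chloroplast envelope, read 546 and 465 on the prolonged arrays, 608 and 724 on the temporal arrays, and 1114 and 1078 on the control arrays. The log2 differences of LrgB were −1.12 ± 0.14 (limma adjusted p = 0.00118) and −0.72 ± 0.14 (limma adjusted p = 0.0260). Its groups ran prolonged, temporal, control from low to high without overlap, as for 4.52% of all tested probe sets. Among the listed genes this order also held for AT1G56190, AT3G48420, Cpn60beta2, HPR, AT1G11860, AT1G80380 and AT3G11630. AT1G11860 fell by 1.07 and 0.75 on the log2 scale in the prolonged and temporal comparisons. HPR, hydroxypyruvate reductase of the peroxisome, fell by 0.55 after prolonged induction and had −0.37 after temporal induction, where it did not pass. AT1G80380 fell by 0.71 after prolonged induction and had −0.36 after temporal induction, which did not pass. HPR passed in 4, and AT1G80380 in 6, of 15 alternative settings.

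Of 17 genes listed for chloroplast thioredoxins, their reductases and related proteins, 8 were measured. Of these 8, 3 fell after prolonged and 2 after temporal induction, against 3.18% and 0.729% of all tested probe sets. None of the 3 that fell (AT3G11630, NTRC and ty2) is a thioredoxin of the f or m type, the types known best for activating Calvin cycle enzymes. AT3G11630 read 1629 and 1640 on the prolonged arrays, 2117 and 2255 on the temporal arrays, and 3234 and 3185 on the control arrays, with log2 differences of −0.97 ± 0.12 (limma adjusted p = 0.000713) and −0.55 ± 0.12 (limma adjusted p = 0.0348). NTRC, an NADPH-dependent thioredoxin reductase joined to a thioredoxin, fell by 0.79 after prolonged induction and had −0.62 after temporal induction. ty2, thioredoxin y2, fell by 0.77 and 0.81 in the prolonged and temporal comparisons. TRXF2, a thioredoxin of the f type, read 301 and 416 on the prolonged arrays, 226 and 255 on the temporal arrays, and 330 and 305 on the control arrays. Its log2 differences against control were 0.16 and −0.40 and neither passed. ATHM2, a thioredoxin of the m type, read 1480 and 1392 on the prolonged arrays, 1413 and 1429 on the temporal arrays, and 1989 and 1778 on the control arrays. Its log2 differences were −0.39 (limma adjusted p = 0.0904) and −0.40 (limma adjusted p = 0.132), and neither passed. THX had −0.50 and −0.59, AT2G04700 −0.22 and −0.26, and TY1 0.17 and 0.18, none of which passed. Every induced array of THX and AT2G04700 read below both controls. Arrays lay below the controls for 24.6% of all tested probe sets in the prolonged and 23.6% in the temporal comparison.

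Of 28 genes listed for starch and sucrose synthesis and starch breakdown, 6 were measured. These 6 did not pass in either comparison with control. ATSPS4F, a sucrose phosphate synthase gene, had log2 differences of −0.83 and −0.84 and read below both controls on all 4 induced arrays, at 205 and 119, and 132 and 182, against 287 and 267. PWD, phosphoglucan water dikinase of starch breakdown, overlapped between the groups with 0.03 and 0.14. AT2G35840, SBE2.2, DPE1 and APL3 had −0.74, −0.22, 0.41 and −0.02 after prolonged induction. Their temporal differences were −0.43, −0.36, −0.15 and −1.70. APL3 read 72.1 and 32.1 on the prolonged arrays, 6.03 and 37.6 on the temporal arrays, and 40.4 and 59.0 on the control arrays. Both temporal arrays of APL3 were below both controls, and its standard error was 0.85. AT2G35840, like ATSPS4F, read below both controls on all 4 induced arrays. Such separation was found for 24.6% of all tested probe sets in the prolonged and 23.6% in the temporal comparison.

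**Figure D5:**
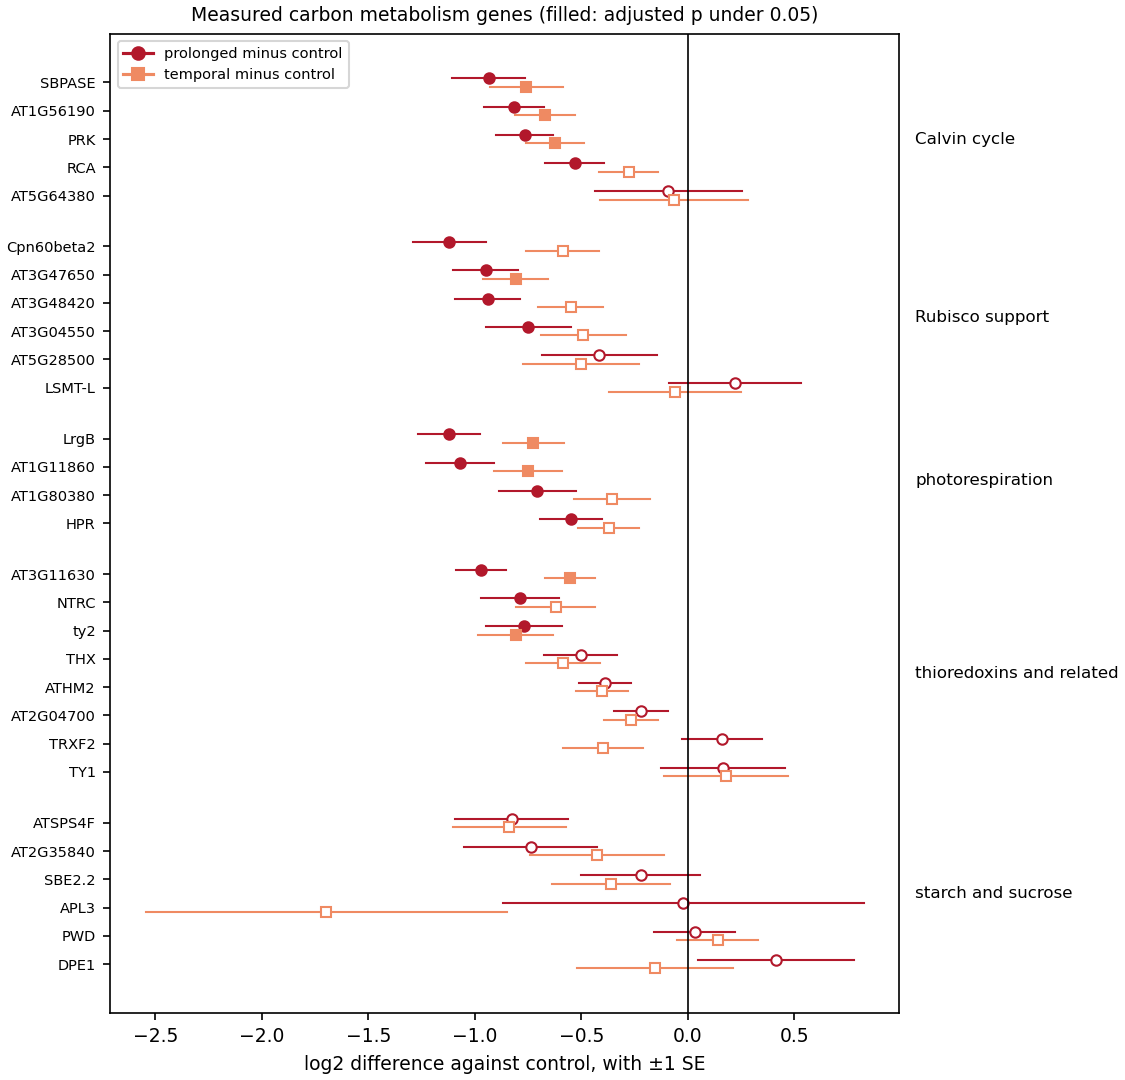
Log2 differences against control with 1 standard error to each side for PRK, SBPASE, RCA and the 26 other measured carbon metabolism genes, by list, with circles for prolonged and squares for temporal induction, filled where the limma adjusted p was under 0.05. Filled symbols lie left of 0 throughout, and the starch and sucrose list has none.

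The genes whose pattern was most like each of the 3 were found by the root mean square difference of log2 profiles over the 6 arrays, each centred on its own mean, among named probe sets. Closest to PRK were rpl16, a plastid genome gene for a ribosomal protein (0.056), AT3G44590 (0.067), MTP11, a manganese transporter gene (0.068), AT5G08570 (0.069) and AT1G79080 (0.070). Closest to SBPASE were rps2, another plastid ribosomal protein gene (0.067), YAO (0.082), AT4G11175 (0.093), AT3G47070 (0.095) and AT1G50450 (0.102). Closest to RCA were GAPC2, of the cytosolic glyceraldehyde phosphate dehydrogenase (0.032), AT4G10300 (0.036), AT1G27400 (0.039), AT3G05560 (0.040) and AT1G67430 (0.048). GAPC2 read 3547 and 3403 on the prolonged arrays, 4320 and 4185 on the temporal arrays, and 5252 and 4843 on the control arrays, the same 3 steps without overlap as RCA. rps2 read 1367 and 1153 on the prolonged arrays, 1367 and 1408 on the temporal arrays, and 2575 and 2080 on the control arrays. Among the 3 genes, the distance was 0.112 between PRK and SBPASE, 0.149 between PRK and RCA and 0.239 between SBPASE and RCA. PRK ranked 6 and RCA 204 among 8875 probe sets ordered by likeness to SBPASE, while PRK ranked 292 and SBPASE 1390 by likeness to RCA. Ordered by likeness to PRK, SBPASE ranked 27 and RCA 110. By this measure, which also counts the size of a change, PRK and SBPASE ran closer to each other than either did to RCA.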

How the data were processed

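One biotin-labelled array per sample was made with one-cycle labelling of total RNA, per the labels' protocols. The deposited value of each probe set is a linear-scale signal intensity from MAS5 (software GCOS, per the submitters' processing notes, with no version stated). Detection calls were not used. Of 22810 probe sets, 64 Affymetrix controls were set aside. Names came from the platform table (13513 probe sets with 1 symbol, 503 with several, 8730 with none) matched to TAIR10.1 locus codes for 13436. No gene was named from a probe set with several symbols. For genes with several probe sets the brightest was used.

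After log2 transformation the dimmest 30% by mean were dropped. The remaining 15923 entered limma 3.58.1 (R 4.3.3) with all 6 arrays, an intensity trend and 3 residual degrees of freedom. Calls required a Benjamini-Hochberg adjusted p under 0.05 over all probe sets of a comparison. Besides the 3 genes, every measured gene of the lists could be named, and the 5 most like each gene in pattern. The genes and lists were chosen with earlier results of these data known. The limma script was tested on simulated data. Alternatives were 3 normalizations, an offset of 32, 2 filters, no trend, 2 groups only, the replicate block and each array left out. Figures used matplotlib 3.10.9 in Python 3.11.15.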

Additional observations from a re-analysis of the deposited data

How the results depend on the processing

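No direction against control changed in any of 15 alternative settings for PRK, SBPASE or RCA, and the calls depended on the setting as follows; where no value shows it, the cause was not tested. In the prolonged comparison the RCA call was lost with quantile normalization (−0.33), median centring (−0.51), cyclic loess (−0.25), or, at the same log2 difference of −0.53, without the filter, without the intensity trend or with only the 2 groups fitted. PRK (−0.77) and SBPASE (−0.93) failed without the trend. Leaving out single arrays gave −0.90 to −0.63 for PRK, −1.14 to −0.73 for SBPASE and −0.61 to −0.46 for RCA. In the temporal comparison PRK and SBPASE failed after quantile normalization (−0.44 and −0.60), after median centring (−0.63 and −0.77), and, at −0.62 and −0.76, without the filter and without the trend. Leaving out single arrays gave −0.70 to −0.55 for PRK and −0.97 to −0.55 for SBPASE. Between the induced groups SBPASE ran from −0.38 to 0.03 with an array left out, and turned to 0.0308 without prolonged replicate 2. In prolonged against control 47 probe sets passed without the trend and 633 to 896 with an array left out, against 1107 with all arrays. In temporal against control 249 passed after median centring, 0 without the trend (1874 with an unadjusted p under 0.05) and 56 to 366 with an array left out, against 386. Between the induced groups 0 passed without the trend (812 with an unadjusted p under 0.05), 24 with only the 2 groups and 1 to 18 with an array left out, against 14. Of the 26 listed genes, 7 passed in the prolonged comparison after median centring, 0 without the trend and 7 to 12 with an array left out, against 12. In the temporal comparison 0 passed after median centring, 3 without the filter, 0 without the trend and 0 to 6 with an array left out, against 6. Where an omitted array left a group with 1 array, that array is assumed to vary like the other groups.

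Across all tested probe sets the replicate numbers showed little sign of pairing. Deviations of same-numbered arrays correlated at 0.013 (prolonged and control), 0.011 (temporal and control) and −0.059 (prolonged and temporal). For PRK, SBPASE and RCA, however, replicate 1 read above replicate 2 in every group, so these correlations cannot exclude pairing for the 3 genes. With the replicate block 1046 probe sets passed in the prolonged, 375 in the temporal comparison and 17 between the induced groups, and the block changed no call of the 3 genes. The scaling alternatives moved the median of all probe sets by less than 0.1 on the log2 scale.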
